A study of Oryctolagus cuniculus with 6 samples.

Results

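Fast transmission in the vertebrate retina runs through 3 small molecules: glutamate is released by photoreceptors, bipolar cells and ganglion cells, while GABA and glycine are released mainly by amacrine and horizontal cells. Their receptors were examined here at the level of RNA. Genes were chosen by symbol alone, from the ionotropic glutamate receptors (GRIA, GRIK, GRIN and GRID), the metabotropic glutamate receptors (GRM), the GABA-A, rho and GABA-B receptors (GABRA to GABRQ, GABRR and GABBR) and the glycine receptors (GLRA and GLRB). Of the 28788 genes in the deposited tables, 50 carried such a symbol, and 49 of them had enough reads to be tested. GABRP, a GABA-A subunit, had between 0 and 5 counts per sample and was not tested. Values for GABRR1 and GLRA4 were not analysed here.

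The retinas came from adult rabbits. The 3 normal samples carry no further label, and the labels do not give a sham-operated group. The 3 proliferative vitreoretinopathy (PVR) samples came from eyes that received a scleral puncture, withdrawal of some vitreous and an injection of platelet-rich plasma into the vitreous cavity, so the puncture, the loss of vitreous and the plasma cannot be told apart. Neither the time after injection nor whether each sample was a separate animal is given in the sources used here, and p-values therefore measure the spread between these samples, which may be technical.

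Receptors of this kind act in 2 ways. Ionotropic receptors are channels built from several subunits, and the mix of subunits sets how long current flows and which ions pass. Metabotropic receptors, among them the GRM and GABBR proteins, act through G proteins. In the retina the split between ON and OFF signalling is made by receptors: ON bipolar cells sense photoreceptor glutamate with the metabotropic receptor encoded by GRM6, whereas OFF bipolar cells use AMPA and kainate receptors.

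Each sample held between 31904593 and 43035080 counted reads. Single genes are given mostly as FPKM, the deposited read numbers scaled to gene length and sequencing depth. Ranks of abundance between genes are by FPKM and depend on the annotated gene lengths. Class and list sums are given mostly as CPM, counts scaled to sequencing depth with TMM factors. The edgeR fold changes use these factors and FPKM does not. The factors were 0.953 to 0.998 in normal and 1.01 to 1.04 in PVR, so PVR stands higher against normal in FPKM than in CPM. GRIK1, for example, had means of 11.9 FPKM in normal and 12.5 FPKM in PVR, but 243 CPM in both. Rod markers were abundant in all samples, with a summed level of 36300 to 43100 CPM in normal retinas and 25100 to 35100 CPM in PVR retinas (5 genes, none past the edgeR threshold, 3 with an unadjusted p under 0.05 and all 5 fitted lower, and 1 past it with DESeq2). Of all genes, 21.2% had an unadjusted edgeR p under 0.05, and 8.75% passed with DESeq2. Normal replicate 2 stood apart, with 32700 CPM in 8 lens genes against 12.2 to 15.6 CPM in the other normal samples and 262 to 300 CPM in PVR. The 6 oligodendrocyte markers summed to between 212 and 1140 CPM in normal samples and between 120 and 146 CPM in PVR, and MAG and MOBP among them fell in PVR. Of the 5 endothelial markers, VWF and CDH5 fell, 2 were fitted higher, and the sum was 382 to 461 CPM in normal and 451 to 474 CPM in PVR, with overlap. These calls were each lost in some alternatives, with adjusted p up to 0.239 for MAG, 0.194 for MOBP, 0.116 for VWF and 0.188 for CDH5. Fewer cells of a type and less RNA per cell cannot be told apart in such bulk samples.

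Most receptor genes differed little between normal and PVR retinas. The 6 that passed in edgeR, DESeq2 or limma-voom were ionotropic glutamate receptor subunits. GABRA5 and GRM3, which are not, had log2 fold changes of 0.76 and -0.59 but passed in none of these tests. GRIN2C, an NMDA receptor subunit, rose in PVR and was the only one of the 49 genes to pass an adjusted p of 0.05 in edgeR's quasi-likelihood test. That is 2.04% of the receptor genes tested, against 1.70% of all 18697 genes tested (1.09% higher and 0.615% lower in PVR), so the share is close to that of the whole table. GRIN2C was also past a log2 fold change of 1, as were 1.01% of all genes. No receptor gene fell past the threshold in edgeR or limma-voom, but 4 were lower at an unadjusted p under 0.05, and DESeq2 called 2 lower. With DESeq2, 6 of the 49 genes (12.2%) passed, against 8.75% of all genes with an adjusted p in that test. These 6 were GRIN2C, GRIN2D, GRIA2 and GRIA4, which were higher, and GRIA1 and GRIK4, which were lower.

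At an unadjusted edgeR p under 0.05 there were 10 receptor genes, or 20.4%, against 21.2% of all genes. In 13 of the 49 (26.5%) the CPM values of the groups did not overlap, with 8 higher and 5 lower in PVR, against 28.0% of all genes. The median log2 fold change of the 49 genes was 0.01, beside -0.01 over all genes tested. The fold changes were small: 44 of the 49 (89.8%) lay within 0.5 of zero on the log2 scale, against 73.4% of all genes. Whether this difference in shares follows from read counts was not tested. The 5 genes beyond 0.5 were GRIN2C, GRIN2D, GABRA5, GRM3 and GRIK4.

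**Figure D1:**
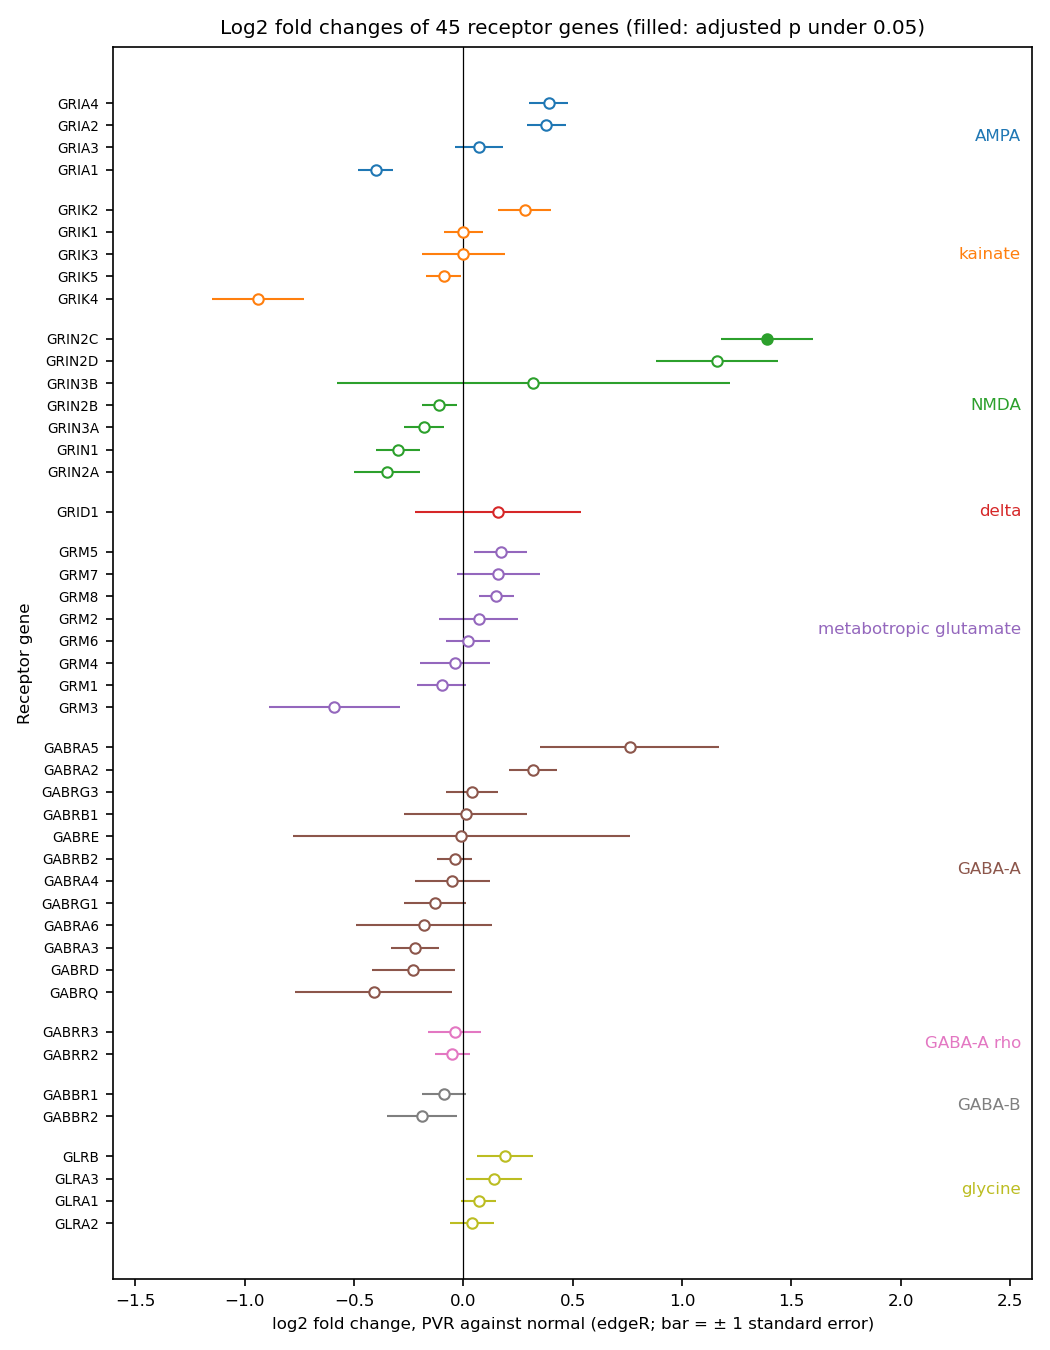
Log2 fold changes of PVR against normal for 45 of the 49 tested receptor genes, grouped by class, with 1 standard error on each side from edgeR. GRIN2C, at 1.39, is the only filled point (adjusted p under 0.05), and 40 of those drawn lie within 0.5 of zero.

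NMDA receptors need both glutamate and glycine to open. Each contains the obligatory subunit encoded by GRIN1 together with GRIN2 subunits, which bind glutamate and set the speed of closing, or GRIN3 subunits, which bind glycine. GRIN2C had FPKM values of 0.569, 0.629 and 0.71 in normal samples, against 1.87, 1.35 and 2.02 in the PVR samples. Every PVR sample was thus well above every normal sample, and the lowest PVR value was that of replicate 2. The group means were 0.636 ± 0.0708 (SD, n = 3) and 1.75 ± 0.35 (SD, n = 3), a ratio of 2.75. In edgeR the log2 fold change was 1.39 (SE 0.21, adjusted p = 0.0312 with Benjamini-Hochberg adjustment over 18697 genes). These levels rest on modest reads, from 159 to 204 counts in normal samples and from 314 to 624 in PVR. Over the 14 alternative analyses the adjusted p lay between 3.58e-07 with DESeq2 and 0.197 without PVR replicate 1, and it was under 0.05 in 8 of them. The call was also lost without normal replicate 1 (adjusted p = 0.104) and without normal replicate 2, the sample with lens transcripts (adjusted p = 0.102), although the edgeR log2 fold change stayed between 1.26 and 1.55 whichever sample was left out. On the log2(FPKM + 1) scale, where low levels give smaller differences, it was 0.74 (adjusted p = 0.0515 with limma).

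GRIN2D, whose subunit gives the slowest closing NMDA receptors, had FPKM values of 0.502, 0.799 and 1.02 in normal samples, against 1.88, 2.07 and 1.5 in the PVR samples. The groups again did not overlap, but the normal samples were spread over a wider range than for GRIN2C. Its log2 fold change was 1.16 (SE 0.28, adjusted p = 0.0864 in edgeR), so it did not pass. DESeq2 gave an adjusted p of 0.002, and the largest over the alternatives was 0.301.

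The abundant NMDA subunits did not share this pattern. GRIN1 had FPKM values of 17.1, 18.2 and 16.4 in normal samples, against 14.6, 14.0 and 15.7 in PVR, so that all PVR samples lay below the normal ones (log2 fold change -0.30, SE 0.10, adjusted p = 0.168 in edgeR). GRIN2A, the GRIN2 gene with the highest FPKM, had 6.35, 5.87 and 7.53 in normal samples, against 5.1, 4.6 and 6.49 in PVR, and PVR replicate 3 reached into the normal range. GRIN2B, the second in FPKM, differed by -0.11 (SE 0.08) on the log2 scale. Without scaling to gene length it was above GRIN2A, with normal means of 101 CPM against 63.0 CPM for GRIN2A. In FPKM, GRIN3A was nearly as abundant as GRIN1, with 17.0, 15.8 and 16.7 in normal samples, against 14.8, 14.2 and 16.8 in PVR. The ratio of GRIN1 to GRIN3A was 1.05 ± 0.0946 (SD, n = 3) in normal and 0.969 ± 0.028 (SD, n = 3) in PVR retinas. GRIN3B was close to absent, with 3 to 29 counts in any sample.

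**Figure D2:**
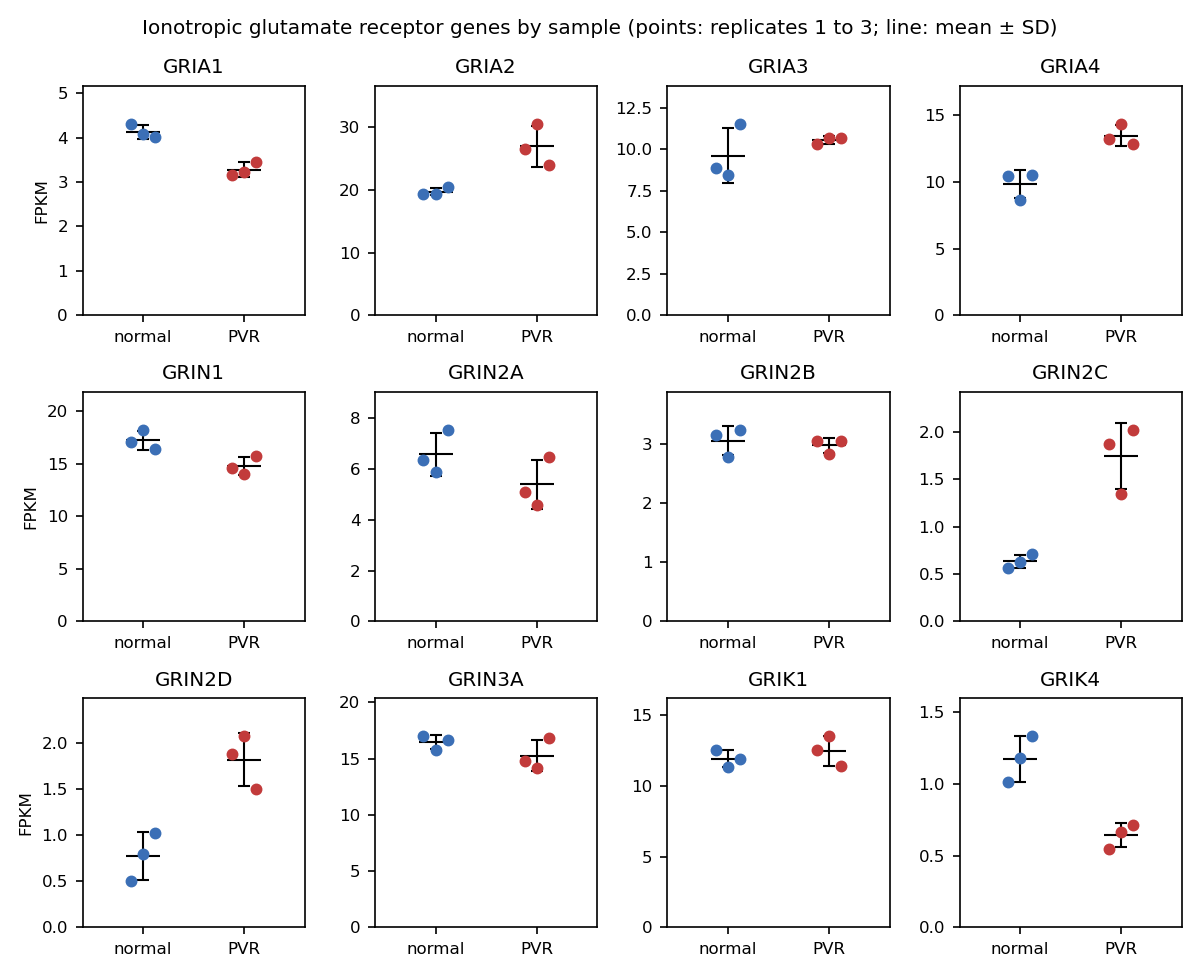
FPKM of 12 ionotropic glutamate receptor genes in the 3 normal and 3 PVR samples, with points for samples, lines for the mean ± SD and axes that start at 0. GRIN2C and GRIN2D are higher in every PVR sample, GRIA2 and GRIA4 are higher and GRIA1 and GRIK4 lower without overlap, and GRIK1 overlaps.

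The composition of the GRIN2 pool differed between the groups. This composition was computed after the single values had been seen and is given without a test. Its shares are of FPKM and depend on the annotated gene lengths. GRIN2C and GRIN2D together made up 10.1%, 14.2% and 13.9% of the summed GRIN2 FPKM in normal samples, against 31.5%, 31.5% and 27.0% in the PVR samples. GRIN2A made up 59.5% ± 1.07 (SD, n = 3) in normal and 45% ± 4.08 (SD, n = 3) in PVR retinas, and GRIN2B changed less, from 27.7% ± 1.96 to 25.0% ± 1.49 (SD, n = 3 each). The ratio of GRIN2A to GRIN2C lay from 9.33 to 11.2 in normal samples and from 2.73 to 3.4 in PVR. The summed level of all 7 NMDA genes was 351 ± 10.5 CPM (SD, n = 3) in normal and 320 ± 29.3 CPM (SD, n = 3) in PVR, and the groups overlapped.

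Marker lists of other cells also differed between the same groups. The 6 Mueller glia markers summed to 2390 to 2730 CPM in normal and 2810 to 2980 CPM in PVR, with CLU rising and RLBP1 and GLUL falling (without PVR replicate 1 the adjusted p was 0.0949 for CLU and 0.188 for RLBP1). Mean CPM went from 779 to 1640 for CLU, from 950 to 440 for GLUL and from 177 to 95.9 for RLBP1. Of the 6 markers, 3 were fitted higher and 3 lower, so the higher sum does not describe the list. The 4 macrophage and microglia markers in the table summed to 11.7 to 22.6 CPM in normal and 25.7 to 40.7 CPM in PVR, and all 4 had fitted values above zero, none of them past the edgeR threshold (2 had an unadjusted p under 0.05, and DESeq2 called 2). Across all genes, 21.2% had an unadjusted edgeR p under 0.05, and 8.75% passed with DESeq2. None of these glia, macrophage and microglia markers was at 0 in all samples. Their part in the GRIN2C and GRIN2D values was not tested.

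AMPA receptors carry the fast glutamate response, and the subunit encoded by GRIA2 makes them nearly impermeable to calcium. GRIA2 was the most abundant AMPA gene, with FPKM values of 19.4, 19.4 and 20.5 in normal samples, against 26.5, 30.5 and 24.0 in PVR. GRIA4 had 10.4, 8.62 and 10.5 in normal samples, against 13.2, 14.3 and 12.8 in PVR. In both genes all PVR samples were above all normal samples, and PVR replicate 2 was the highest. GRIA1 went the other way, with 4.3, 4.07 and 4.01 in normal samples, against 3.15, 3.23 and 3.46 in PVR, again without overlap. GRIA3 overlapped, with a log2 fold change of 0.07 (SE 0.11).

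None of the 4 AMPA genes passed the threshold in edgeR or limma-voom. The log2 fold changes in edgeR were 0.38 (SE 0.09, adjusted p = 0.086) for GRIA2, 0.39 (SE 0.09, adjusted p = 0.0864) for GRIA4 and -0.40 (SE 0.08, adjusted p = 0.0549) for GRIA1. The unadjusted p was under 0.05 for all 3, and with DESeq2 all 3 passed, at adjusted p of 0.0167, 0.00823 and 0.00612. Over all alternatives the adjusted p ranged up to 0.297 for GRIA2, 0.301 for GRIA4 and 0.275 for GRIA1, each without PVR replicate 1. GRIA1 also passed without normal replicate 3 (adjusted p = 0.0498) or PVR replicate 3 (adjusted p = 0.038), and GRIA2 passed without PVR replicate 3 (adjusted p = 0.0472).

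Ratios of these genes within a sample restate the same values. The ratio of GRIA2 to GRIA1 FPKM was 4.5, 4.75 and 5.13 in normal samples, against 8.41, 9.43 and 6.93 in PVR, a description chosen after the values were seen. The ratio of GRIA4 to GRIA1 ran likewise from 2.12 to 2.61 in normal and from 3.71 to 4.43 in PVR. In contrast, the ratio of GRIA2 to GRIA4 was 2.02 ± 0.193 (SD, n = 3) in normal and 2.0 ± 0.13 (SD, n = 3) in PVR retinas. The share of GRIA1 in the summed AMPA FPKM was 9.56% ± 0.826 (SD, n = 3) in normal and 6.07% ± 0.654 (SD, n = 3) in PVR.

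**Figure D3:**
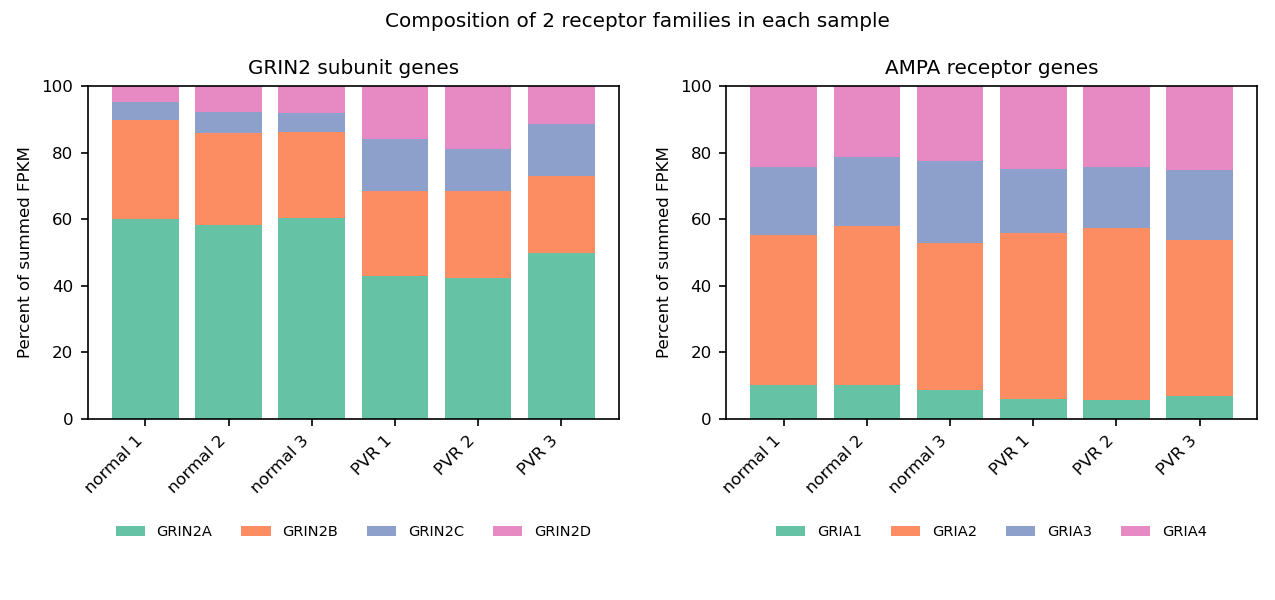
Percent of summed FPKM taken by each GRIN2 gene and by each AMPA receptor gene in the 6 samples, 1 bar per sample. GRIN2C and GRIN2D together take 10.1% to 14.2% of the bar in normal samples and 27.0% to 31.5% in PVR, and the GRIA1 share is smaller in all PVR bars.

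Kainate receptors of OFF bipolar cells are built around the subunit encoded by GRIK1. It was the most abundant kainate gene, with FPKM values of 12.5, 11.3 and 11.9 in normal samples, against 12.5, 13.5 and 11.4 in PVR. These values overlapped, although PVR replicate 2 was above every normal sample, with a log2 fold change of -0.00 (SE 0.09). GRIK5, an accessory subunit that needs such a partner to form a channel, was next, with 9.38, 9.13 and 10.1 in normal samples and 9.85, 9.48 and 8.93 in PVR. GRIK4, the other accessory subunit, was the least abundant and differed most, with 1.01, 1.18 and 1.33 in normal samples, against 0.549, 0.664 and 0.713 in PVR. The groups did not overlap, and the PVR mean was 0.547 of the normal mean. Its log2 fold change was -0.94 (SE 0.21, adjusted p = 0.0744 in edgeR), with 218 to 296 counts in normal samples and 97 to 170 in PVR. It passed with DESeq2 (adjusted p = 0.00483) and in none of the 13 other alternatives, where the adjusted p reached 0.299. GRIK2 was higher in every PVR sample (log2 fold change 0.28, SE 0.12, adjusted p = 0.229 in edgeR), and GRIK3 overlapped.

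GRID1 encodes a receptor of the delta class, which resembles AMPA receptors and acts mainly as a synaptic organiser. It was low and variable, with 0.502, 0.39 and 0.99 FPKM in normal samples, against 0.751, 0.952 and 0.498 in PVR, and the groups overlapped.

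GRM6 had the highest FPKM of all receptor genes in the normal retinas. It had 34.2, 34.4 and 32.6 in normal samples, against 34.5, 32.5 and 40.4 in PVR, where replicate 3 was the highest of all 6 samples and the other PVR samples lay close to the normal range. The log2 fold change was 0.02 (SE 0.10). GRM8, another receptor of its group, was the next metabotropic glutamate gene, with 4.1, 3.75 and 3.97 in normal samples, against 4.52, 4.88 and 4.35 in PVR, without overlap (log2 fold change 0.15, SE 0.08, adjusted p = 0.324 in edgeR). GRM3, a receptor that also occurs on glia, had the lowest log2 fold change of the class, at -0.59 (SE 0.30), but its normal samples ran from 1.78 to 3.4 FPKM and overlapped with PVR. None of the 8 GRM genes passed the threshold in edgeR, DESeq2 or limma-voom, and none had an unadjusted edgeR p under 0.05. Over all genes the shares were 1.70% in edgeR, 8.75% with DESeq2 and 21.2% at an unadjusted edgeR p under 0.05. That the class differs from these shares was not tested.

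In ON bipolar cells the GRM6 receptor closes the channel TRPM1 through a G protein, which is switched off by a complex of RGS7 or RGS11 with GNB5. Of 12 genes of this cascade, RGS7 rose in PVR and none fell past the edgeR threshold, although 2 were lower at an unadjusted p under 0.05 and DESeq2 also called RGS7 only. The shares over all genes were 1.70% in edgeR, 8.75% with DESeq2 and 21.2% at an unadjusted edgeR p under 0.05. RGS7 had FPKM values of 16.7, 13.1 and 14.7 in normal samples, against 28.4, 28.4 and 30.8 in PVR. The PVR samples lay close together at 1.97 times the normal mean, with a log2 fold change of 0.91 (SE 0.10, adjusted p = 0.0125 in edgeR). It was past the threshold in 13 of 14 alternatives and missed it without PVR replicate 1 (adjusted p = 0.106). GNB5, the most abundant gene of the cascade, had 341 to 411 FPKM in normal and 304 to 361 FPKM in PVR. TRPM1 itself had 34.0 to 35.4 FPKM in normal and 35.7 to 36.6 FPKM in PVR. In CPM its groups overlapped, with a log2 fold change of -0.00 (SE 0.08) in edgeR. RGS7 also serves other G proteins in other retinal neurons, and which cells carried the difference was not tested. The 6 ON bipolar markers, which include GRM6, summed to 960 to 1020 CPM in normal and 867 to 1010 CPM in PVR.

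GABA-A receptors are chloride channels assembled mostly from alpha, beta and gamma subunits. GABRB2, a beta subunit, had FPKM values of 15.5, 12.8 and 15.3 in normal samples, against 14.8, 15.1 and 14.4 in PVR. The groups overlapped, with a log2 fold change of -0.04 (SE 0.08) in edgeR and 0.03 on the log2(FPKM + 1) scale. GABRA2 was the one GABA-A gene with an unadjusted p under 0.05, at 8.37, 7.0 and 6.65 in normal samples, against 8.98, 9.4 and 10.5 in PVR (log2 fold change 0.32, SE 0.11, adjusted p = 0.171 in edgeR). GABRA5 had the largest log2 fold change of the class, 0.76 (SE 0.41), but this rested on PVR replicate 2, at 1.97 FPKM, with the other PVR samples at 0.981 and 0.643 and the normal samples at 0.595 to 0.781.

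Many GABA-A genes lie next to one another in mammalian genomes. RefSeq's mOryCun1.1 annotation, a different build from that of the counts, served for gene order alone, and 49 of the 50 receptor genes were found in it. Between GABRA6 and GABRB2 lies 1 other protein-coding gene, and their normal means were 1.95 and 14.5 FPKM. In the cluster of GABRG1, GABRA2, GABRA4 and GABRB1 the normal means were 3.69, 7.34, 5.02 and 3.14 FPKM, and for GABRA5 and GABRG3, which are direct neighbours, they were 0.669 and 2.72 FPKM. None of these genes passed the threshold in edgeR, DESeq2 or limma-voom. GRIA2 and GLRB are also direct neighbours, with log2 fold changes of 0.38 and 0.19 (SE 0.13), of which neither passed in edgeR.

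The rho subunits form slow GABA receptors that are concentrated on bipolar cell terminals. GABRR2 had FPKM values of 18.4, 17.7 and 18.4 in normal samples, against 18.7, 20.1 and 16.6 in PVR. GABRR3 had 11.3, 8.87 and 9.75 in normal samples, against 9.48, 10.5 and 10.6 in PVR. Both overlapped, with log2 fold changes of -0.05 (SE 0.08) and -0.04 (SE 0.12). GABA-B receptors work only as a pair of the proteins encoded by GABBR1 and GABBR2. GABBR1 had 28.6, 27.0 and 34.7 FPKM in normal samples, against 29.5, 28.1 and 31.1 in PVR, and GABBR2 had 9.9, 9.29 and 13.2 in normal and 10.2, 8.19 and 11.3 in PVR. Normal replicate 3 was the highest sample for both partners. GABBR1 took 73.7% ± 1.14 of the pair's FPKM in normal and 75.1% ± 2.13 in PVR (SD, n = 3 each).

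Glycine receptors are chloride channels of alpha subunits with the beta subunit encoded by GLRB, which ties them to the scaffold protein gephyrin. GLRA1 had FPKM values of 10.5, 10.3 and 12.3 in normal samples, against 12.4, 11.9 and 12 in PVR. GLRA2 had 8.69, 7.55 and 7.92 in normal samples, against 8.57, 8.34 and 9.18 in PVR. All 4 genes had fitted values above zero, from 0.04 to 0.19 on the log2 scale, and the CPM values of the groups overlapped in every one of them, although GLRA3 did not overlap in FPKM (6.35 to 7.03 against 7.26 to 8.83). The ratio of GLRA1 to GLRB FPKM was 1.65 ± 0.13 in normal and 1.54 ± 0.21 in PVR (SD, n = 3 each).

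**Figure D4:**
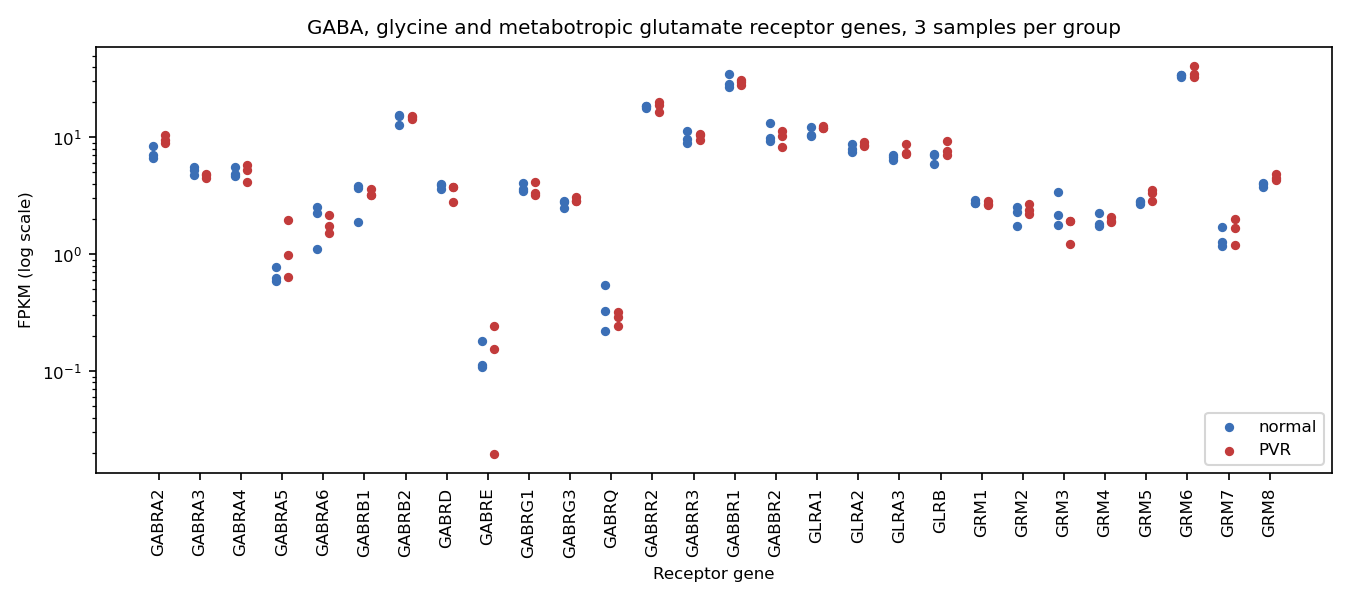
FPKM on a log scale of GABA, glycine and metabotropic glutamate receptor genes, with 1 point per sample, blue for normal and red for PVR (GABRP, at 0 in some samples, is left out). The levels span from GABRE, at most 0.243, to GRM6, at 32.5 or more, and the colours overlap or lie close together for nearly all genes.

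None of the 23 GABA and glycine receptor genes tested passed the threshold in edgeR, DESeq2 or limma-voom, and 1 had an unadjusted edgeR p under 0.05, against 21.2% of all genes. Their median log2 fold change was -0.01, and 22 of them lay within 0.5 of zero. Among the 26 glutamate receptor genes, 1 passed in edgeR (1.70% of all genes did), 9 had an unadjusted p under 0.05 (21.2% of all genes), and the median was 0.04. That the 2 sets differ from each other was not tested. Among the genes named here, the most abundant in normal retinas were GRM6, GABBR1, GRIA2, GABRR2 and GRIN1, with means of 33.7, 30.1, 19.8, 18.1 and 17.3 FPKM. Their SDs were 0.975, 4.05, 0.68, 0.403 and 0.906 FPKM. GRM6 and GABBR1 differed by less than the larger of their SDs, as did GABRR2 and GRIN1, and the steps from GABBR1 to GRIA2 and from GRIA2 to GABRR2 were larger than either SD. These comparisons between genes depend on the annotated gene lengths.

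Summed over its genes, the AMPA class was 480 ± 21.6 CPM (SD, n = 3) in normal and 560 ± 25.5 CPM (SD, n = 3) in PVR retinas, a ratio of 1.17 without overlap. The two-sided exact permutation test gave p = 0.1, below which groups of 3 and 3 cannot go, and 0.45 after Benjamini-Hochberg adjustment over the 9 classes. The 7 other classes given here overlapped in CPM, with ratios of PVR to normal from 0.91 for NMDA to 1.06 for glycine receptors (rho receptors were at 0.97 in CPM and 1.02 in FPKM) and exact permutation p from 0.2 to 0.5. In summed FPKM the glycine class did not overlap, at 30.1 to 34.2 in normal and 35.9 to 37.8 in PVR, a ratio of 1.13 with an exact permutation p of 0.1. The GABA-A class, the largest, had 711 ± 57.7 CPM (SD, n = 3) in normal and 738 ± 47.2 CPM (SD, n = 3) in PVR. The sum over all 50 genes was 2910 ± 108 CPM and 3000.0 ± 86.4 CPM (SD, n = 3 each), and the groups overlapped.

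**Figure D5:**
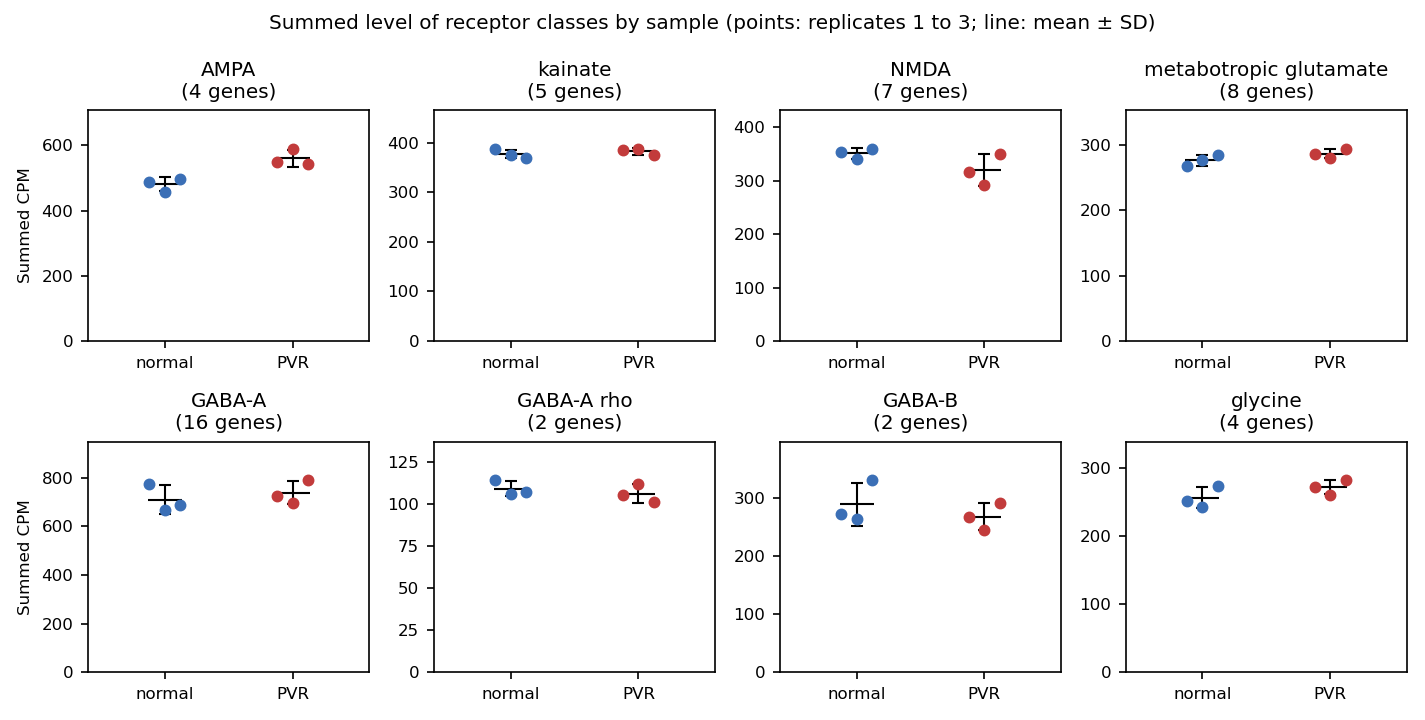
Summed TMM-scaled CPM of 8 receptor classes in the 3 normal and 3 PVR samples, with points for samples, lines for the mean ± SD and axes that start at 0. The AMPA sum is higher in every PVR sample, and the other classes overlap.

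The proteins that place, scaffold and supply these receptors were examined in further gene lists. For comparison, 1.70% of all genes passed in edgeR, 8.75% with DESeq2, and 21.2% had an unadjusted edgeR p under 0.05. That any list differs from these shares was not tested. Of 14 AMPA and kainate auxiliary subunits, which escort and tune the channels, none passed the edgeR threshold, 2 had an unadjusted p under 0.05, and DESeq2 and limma-voom called none. Their median log2 fold change was -0.16, with 11 fitted lower (-0.05 and 10 on the log2(FPKM + 1) scale). The most abundant, CACNG7, had 14.8 to 16 FPKM in normal and 11.6 to 14.0 FPKM in PVR. Of 15 glutamate receptor scaffold genes (median -0.09), SHANK2 fell, with 6.3, 6.88 and 5.89 FPKM in normal samples, against 4.51, 4.83 and 4.76 in PVR (log2 fold change -0.51, SE 0.09, adjusted p = 0.0478 in edgeR). It passed in 4 of 14 alternatives, with adjusted p from 0.00162 with DESeq2 to 0.268 without PVR replicate 1. At an unadjusted p under 0.05, 2 scaffold genes were higher and 3 lower. DESeq2 called 3, with SHANK1 and SHANK2 lower and DLG1 higher, and in edgeR DLG1 had a log2 fold change of 0.50 (SE 0.13, adjusted p = 0.103). DLG4, the most abundant scaffold gene and the source of PSD-95, had 107 to 117 FPKM in normal and 99.0 to 106 FPKM in PVR. Of the 7 tested genes of inhibitory scaffolds and GABA-B auxiliary proteins none passed in edgeR, 3 were higher at an unadjusted p under 0.05, and DESeq2 called KCTD8 and KCTD12 higher, which encode proteins that bind GABA-B receptors. GABARAP, which links GABA-A receptors to transport, was listed at 0 in all samples. Whether this 0 reflects absent RNA or the annotation and counting was not tested.

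Glutamine synthetase, encoded by GLUL, converts the glutamate taken up by Mueller glia into glutamine. It had FPKM values of 313, 346 and 429 in normal samples, against 186, 170 and 173 in PVR, so that every PVR sample was far below the normal ones. GLUL fell with a log2 fold change of -1.11 (SE 0.12, adjusted p = 0.0125 in edgeR), and it was past the threshold in 13 of 14 alternatives and missed it without PVR replicate 1 (adjusted p = 0.106). It was the only one of 6 genes of transmitter synthesis and breakdown to pass. None of the 14 transporter genes for glutamate, GABA and glycine (median -0.12) passed in edgeR, DESeq2 or limma-voom, and 2 were lower at an unadjusted p under 0.05. In either direction, 21.2% of all genes had such an unadjusted edgeR p, and 1.70% passed in edgeR. SLC17A7, the most abundant of them, loads glutamate into the synaptic vesicles of photoreceptors and bipolar cells and had 226 to 263 FPKM in normal and 202 to 224 FPKM in PVR. Neither of the chloride transporter genes passed in the 3 tests or had an unadjusted edgeR p under 0.05, and SLC12A5, which keeps chloride low in neurons, had 90.2 to 94.7 FPKM in normal and 87.3 to 88.1 FPKM in PVR.

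Markers of other retinal neurons that carry these receptors were tested gene by gene, and no list was tested as a whole. Among all genes, 1.70% passed in edgeR, 8.75% with DESeq2, and 21.2% had an unadjusted edgeR p under 0.05. The 8 amacrine, 5 horizontal, 6 bipolar, 5 cone and 9 ganglion cell markers held no gene that passed in edgeR or limma-voom, with 1, 2, 0, 2 and 0 genes at an unadjusted p under 0.05, and DESeq2 called CHAT, an amacrine marker, lower. Ganglion cell markers summed to 1150 to 1610 CPM in normal and 859 to 1430 CPM in PVR, and 8 of the 9 were fitted lower. In edgeR all 5 cone, 6 of the 8 amacrine, 4 of the 6 bipolar and 2 of the 5 horizontal cell markers were also fitted lower. Amacrine markers summed to 697 to 804 CPM and 633 to 730 CPM, bipolar markers to 560 to 617 CPM and 573 to 602 CPM, horizontal cell markers to 340 to 453 CPM and 372 to 396 CPM, and cone markers to 1330 to 1960 CPM and 1170 to 1510 CPM. The 3 markers of astrocytes and reactive glia summed to 914 to 1520 CPM and 1340 to 1390 CPM with none past the threshold in the 3 tests and 1 at an unadjusted p under 0.05, and the 5 pigment epithelium markers, which include RLBP1, to 248 to 404 CPM and 164 to 187 CPM.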

How the data were processed

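Polyadenylated RNA of 3 normal and 3 PVR rabbit retinas was sequenced, and samples were grouped by their titles. HISAT2 (v2.1.0) was the authors' aligner, with OryCun2.0 as the genome, and htseq-count (v0.11.2) their counter. The authors deposited raw counts and FPKM values per gene. The annotation release and strand setting are not given in the sources used here, so reads of overlapping genes may be shared. Depth was 31904593 to 43035080 counts per sample.

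Counts were tested in R 4.3.3 with edgeR 4.0.16 (default low-count filter, TMM factors, quasi-likelihood test, condition as the only term), which kept 18697 genes, and p-values were adjusted over all of them. The standard error is the log2 fold change divided by the square root of F. Genes were called at an adjusted p under 0.05 and, where stated, beyond a log2 fold change of 1. Class sums were compared with exact permutation tests in SciPy 1.17.1. Tests were checked on simulated counts. The alternatives were DESeq2 1.42.0, limma-voom (limma 3.58.1), RLE factors, no low-count filter, at least 10 counts in every sample, leaving out single samples, a block for the replicate number, and limma on FPKM with a pseudocount of 1 or 0.1 on the log2 scale. Replicates of a group differed by more than counting noise (chi-square per degree of freedom 19.6 to 185).

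The receptor genes and lists were chosen with earlier results of these data known. Genes named by rule were those past the threshold, the 2 with the highest mean FPKM in each class, GRM6, those with too few counts, and from each other list the genes past the threshold and the most abundant one. Some genes, with the results that need them, are not reported here. Other named genes were chosen after their values were seen. Marker genes PDE6B, C1QA and C1QB were not matched. No sequences are shown, as none were used here.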

Additional observations from a re-analysis of the deposited data

How the results depend on the processing

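The number of receptor genes higher in PVR was 1 in edgeR, 4 with DESeq2, and 0 on log2(FPKM + 1), on log2(FPKM + 0.1) and with a replicate block, and 0 to 2 with single samples left out. The number lower was 0 in edgeR, 2 with DESeq2 and 0 to 1 with samples left out. GRIN2C had 1.37 with the replicate block (adjusted p = 0.074). Deviations from the group means correlated at -0.0129, 0.0734 and 0.0417 between samples with the same number. Between samples with different numbers the correlations ran from -0.0828 to 0.0427. With means of only 3 samples, these values cannot decide whether the numbers pair the samples. Median log2 fold changes moved on log2(FPKM + 1) to 0.28 for AMPA and 0.05 for kainate, and on log2(FPKM + 0.1) to 0.29 for AMPA, 0.07 for kainate and 0.12 for metabotropic glutamate receptors. With samples left out they ran from 0.16 to 0.30, from -0.09 to -0.01 and from -0.02 to 0.11. The summed rho level was 0.97 of normal in CPM but 1.02 in FPKM. Of 628 values for single genes, 48 changed sign, all of genes far from the threshold. On log2(FPKM + 1) these were GABRA4 at 0.01, GABRB2 at 0.03, GABRE at 0.00, GABRR2 at 0.02, GABRR3 at 0.03, GRIK1 at 0.06 and GRM4 at 0.02, and on log2(FPKM + 0.1) GABRA4 at 0.01, GABRB2 at 0.03, GABRR2 at 0.02, GABRR3 at 0.04, GRIK1 at 0.07 and GRM4 at 0.03. GRIK1 was at 0.00 with RLE factors and 0.01 with at least 10 counts in every sample, GRIK3 at -0.00 with the replicate block and GRIN3B at -0.11 with limma-voom. With samples left out, values ran from -0.15 to 0.01 for GABBR1, -0.17 to 0.08 for GABRA4, -0.44 to 0.05 for GABRA6, -0.26 to 0.17 for GABRB1, -0.10 to 0.01 for GABRB2 and GABRR2, -0.63 to 0.49 for GABRE, -0.01 to 0.08 for GABRG3, -0.10 to 0.06 for GABRR3, -0.01 to 0.10 for GLRA2, -0.07 to 0.63 for GRID1, -0.05 to 0.04 for GRIK1, -0.11 to 0.16 for GRIK3, -0.45 to 0.92 for GRIN3B, -0.06 to 0.18 for GRM2, -0.10 to 0.07 for GRM4, -0.09 to 0.09 for GRM6 and -0.00 to 0.32 for GRM7. The cause was not tested. Counts of GRIN3B and GABRE are too low to place their values.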
